A study of Homo sapiens with 12 samples.

Results

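Of 42 listed genes of the actin cytoskeleton, serum response factor (SRF), the integrins and the extracellular matrix, 40 were measured in silver-exposed intestinal epithelial cells, among 19775 genes in all. The genes were chosen by name, with earlier results of these data known, so the list is not independent of them. The 40 comprised SRF with 3 early response genes, 17 genes of the actin cytoskeleton including vimentin, 8 cell-matrix receptors, 1 laminin chain, 4 genes of transforming growth factor β (TGF-β) and thrombospondin, 3 genes of matrix proteolysis, and 3 genes of collagen and fibronectin. FLNA, which encodes the actin crosslinker filamin A, and LAMA3, a laminin chain, were not analysed here.

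The cells were Caco-2, an established line from a human colon carcinoma that forms a monolayer with features of absorptive enterocytes when left confluent. They were at passage 22 and 21 days past confluence, had been grown with 10% serum, and were kept for 24 h in 20 mL of medium with antibiotics and 1% of an insulin, transferrin and selenium supplement. Total RNA was hybridised to 3′ expression arrays, 3 per group: cells in medium alone, cells with AgPURE, a silver nanoparticle with a surfactant coat, in doses of 2.5 or 25 µg/mL, and cells with silver ions, given as AgNO3, at 0.5 µg/mL. The ion dose matched neither particle dose, and no surfactant-only group was included, so silver and surfactant cannot be told apart in the particle groups. Nothing in the labels says whether the arrays of a group stand for separate cultures, and the p-values measure the spread between arrays, which may be technical. Values are log2 expression values of 1 probe set per gene, and a difference of 1 is a 2-fold change.

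SRF is a transcription factor that binds a DNA element called the CArG box in the promoters of actin, tropomyosin, calponin and vinculin genes. Its coactivators of the MRTF family are held by monomeric actin and are released when actin polymerises, so the genes follow the state of the cytoskeleton. A second branch works through YAP and TAZ, which act with TEAD factors on CCN1, CCN2 and ANKRD1 when cells are stretched or poorly confined. Integrins join the cytoskeleton to laminins, collagens and fibronectin through focal adhesions that hold vinculin, zyxin and α-actinin, and they also release active TGF-β from its latent form. In the intestinal epithelium these genes are known for cell spreading, wound closure and anchoring to the basement membrane.

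The promoters of 6 members are shown because they hold the motifs by which this gene set is usually grouped. Each line gives the 250 bases before the start site on the gene's own strand, 5′ to 3′, from RefSeq on GRCh38.p14, with the motif in capitals. For SRF (chr6:43171019-43171268, plus strand), ACTG2 (chr2:73892758-73893007, plus strand) and TPM4 (chr19:16067288-16067537, plus strand) the capitals mark the CArG box. For CCN2 (chr6:131951373-131951622, minus strand) and ANKRD1 (chr10:90921088-90921337, minus strand) they mark the TEAD motif GGAATG, and for MMP7 (chr11:102530748-102530997, minus strand) the AP-1 motif TGAGTCA.
SRF: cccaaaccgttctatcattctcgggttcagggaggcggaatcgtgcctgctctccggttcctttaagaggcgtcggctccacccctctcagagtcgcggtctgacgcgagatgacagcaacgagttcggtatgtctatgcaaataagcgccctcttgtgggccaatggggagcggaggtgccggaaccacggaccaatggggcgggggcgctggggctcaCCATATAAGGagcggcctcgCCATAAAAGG
ACTG2: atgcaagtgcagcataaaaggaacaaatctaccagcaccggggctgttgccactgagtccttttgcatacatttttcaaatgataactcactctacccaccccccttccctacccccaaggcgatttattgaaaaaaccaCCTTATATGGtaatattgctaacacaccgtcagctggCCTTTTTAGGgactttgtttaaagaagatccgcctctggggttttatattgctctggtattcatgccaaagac
TPM4: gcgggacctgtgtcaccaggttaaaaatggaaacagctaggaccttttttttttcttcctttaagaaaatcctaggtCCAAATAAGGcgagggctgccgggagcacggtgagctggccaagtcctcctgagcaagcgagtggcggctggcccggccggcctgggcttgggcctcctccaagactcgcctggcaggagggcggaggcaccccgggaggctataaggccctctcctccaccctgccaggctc
CCN2: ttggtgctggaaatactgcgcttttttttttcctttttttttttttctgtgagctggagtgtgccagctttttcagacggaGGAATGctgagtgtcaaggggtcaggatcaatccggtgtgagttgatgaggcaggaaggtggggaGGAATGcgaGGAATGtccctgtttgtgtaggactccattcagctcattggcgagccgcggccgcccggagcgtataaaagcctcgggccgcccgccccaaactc
ANKRD1: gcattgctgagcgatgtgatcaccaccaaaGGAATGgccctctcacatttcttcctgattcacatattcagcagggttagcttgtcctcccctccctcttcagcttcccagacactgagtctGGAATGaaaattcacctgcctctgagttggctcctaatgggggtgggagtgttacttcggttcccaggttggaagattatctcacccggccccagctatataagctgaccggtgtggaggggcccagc
MMP7: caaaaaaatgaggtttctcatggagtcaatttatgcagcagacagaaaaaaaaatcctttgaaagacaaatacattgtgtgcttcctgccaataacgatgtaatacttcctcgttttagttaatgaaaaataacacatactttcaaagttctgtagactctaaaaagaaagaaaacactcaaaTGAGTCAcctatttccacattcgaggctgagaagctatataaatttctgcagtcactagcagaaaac

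Both SRF and ACTG2, the smooth muscle γ-actin gene, held 2 CArG boxes, CCN2 held 3 TEAD motifs and ANKRD1 held 2. Promoter windows of 300 bases, 250 before the start to 50 after it, were at hand for 33 of the 40 members, in 51 windows. The CArG box was found on either strand in 5 of the 33 members (15.2%), namely SRF, ACTG2, ACTN1, TPM4 and CNN2, and in 1.6% of 27305 genes with such windows. The TEAD motif (GGAATG, or CATTCC on the other strand) was found in 11 members (33.3%) and in 16.73% of all genes. The AP-1 motif (TGAGTCA, or TGACTCA on the other strand) was found in 5 members (15.2%) and in 6.05% of all genes. No match of one motif overlapped a match of another among the members. A match is a run of letters in a short window and says nothing of binding in these cells.

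The arrays at 25 µg/mL stood apart from the rest: arrays of one group correlated at r of 0.992 to 0.996 over all probe sets, which share an array and are no replicates, and medium with 25 µg/mL arrays at 0.978 to 0.981. The control probe sets moved too. The 24 probe sets for poly-A spikes, RNAs usually added in fixed amount, had log2 means of 5.41 in medium and 6.02 at 25 µg/mL, a difference of 0.61. The 3 arrays at 25 µg/mL read 6.21, 5.56 and 6.31, and the medium mean was not far above the median of all values, 4.75. The 18 hybridization controls were higher by 0.43. Scaling the arrays on these controls therefore takes 0.61 or 0.43 from every log2 difference between 25 µg/mL and medium, and it moves the median of all genes from -0.01 to -0.62 or -0.44. All changes below are relative to the authors' normalization unless a scaling is named. No cell counts were used, so none of the scalings can be read as RNA per cell.

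Cell identity was checked with marker lists. Of 10 epithelial markers, 9 were above the median of all values, 4.75, in medium, with EPCAM at 13.20 and CDH1 at 12.46, and at 25 µg/mL 5 of the 10 were lower and 1 (KRT18) was higher. Of 10 enterocyte markers 6 were above that median in medium, while SI at 3.56 and FABP2 at 4.18 were below it, and 4 fell at 25 µg/mL (ALPI, FABP1, APOA1 and APOA4). Among 8 smooth muscle markers none was called, and their mean level per array was 4.84 to 4.94 in medium and 4.86 to 4.91 at 25 µg/mL. Among 10 fibroblast markers PDGFRA rose from 8.36 to 9.16 and LUM fell, with mean levels of 5.27 to 5.32 and 5.32 to 5.33. The endothelial list (7 markers, 1 higher: CDH5) and the leukocyte list (6 of 8 measured, 2 lower: CD14 and LYZ) had mean levels of 4.53 to 4.62 and 5.23 to 5.35 in medium and 4.71 to 4.77 and 4.80 to 5.13 at 25 µg/mL. Above the median in medium were 5 of 8 smooth muscle, 5 of 10 fibroblast, 3 of 7 endothelial and 2 of 6 leukocyte markers. Some lay well above it, such as COL1A1 at 9.2 and LYZ at 8.99, so the lists do not separate cleanly by level. In whole-culture RNA, fewer cells of a type and less RNA per cell cannot be told apart, and the part of the marker changes in the members' changes was not tested.

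At 25 µg/mL most cytoskeletal members rose together, and ANKRD1 and CCN2 rose the most of all members. ANKRD1, CCN2 and CCN1 were higher by 8.98-fold, 4.02-fold and 3.31-fold, and vimentin, transgelin, smooth muscle γ-actin, zyxin, vinculin, tropomyosin 4 and myosin light chain 9 by 2.08-fold to 3.45-fold. The integrin ITGA2 and the protease MMP7 were higher by 3.57-fold and 2.81-fold. COL3A1 and TGFBI, both genes of the matrix, were lower by 3.60-fold and 2.49-fold. Across the members 26 were called higher, 4 lower and 10 in neither direction (limma, 2-sided, Benjamini-Hochberg adjusted p under 0.05 over all genes), so that 75% were called against 33.4% of all genes. The background was 14.1% of genes higher and 19.3% lower, with dim genes included. With genes below the median of all values left out, 36 members remained, 25 higher and 4 lower. In that smaller set 2682 genes were higher and 3853 lower, and the shares were not computed.

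The median log2 difference of the members was 0.49, against -0.01 for all genes, and the median size irrespective of sign was 0.55 against 0.18. A change of 2-fold or more was called for 13 members upward and 2 downward, where the background shares were 1.23% and 2.26%. For 28 members all 3 arrays at 25 µg/mL lay above all medium arrays (70%, background 19.8%), and for 4 they all lay below (10%, background 25.9%). The members' median per array was 0.52, 0.60 and 0.45 above the medium mean on the 3 arrays at 25 µg/mL and -0.03, 0.05 and -0.03 on the medium arrays. With the arrays scaled on poly-A controls the members' calls became 11 higher and 8 lower, where 0.905% of all genes were called higher and 71.2% lower. With hybridization controls they became 15 higher and 8 lower, where 2.57% of all genes were called higher and 64.9% lower.

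**Figure D1:**
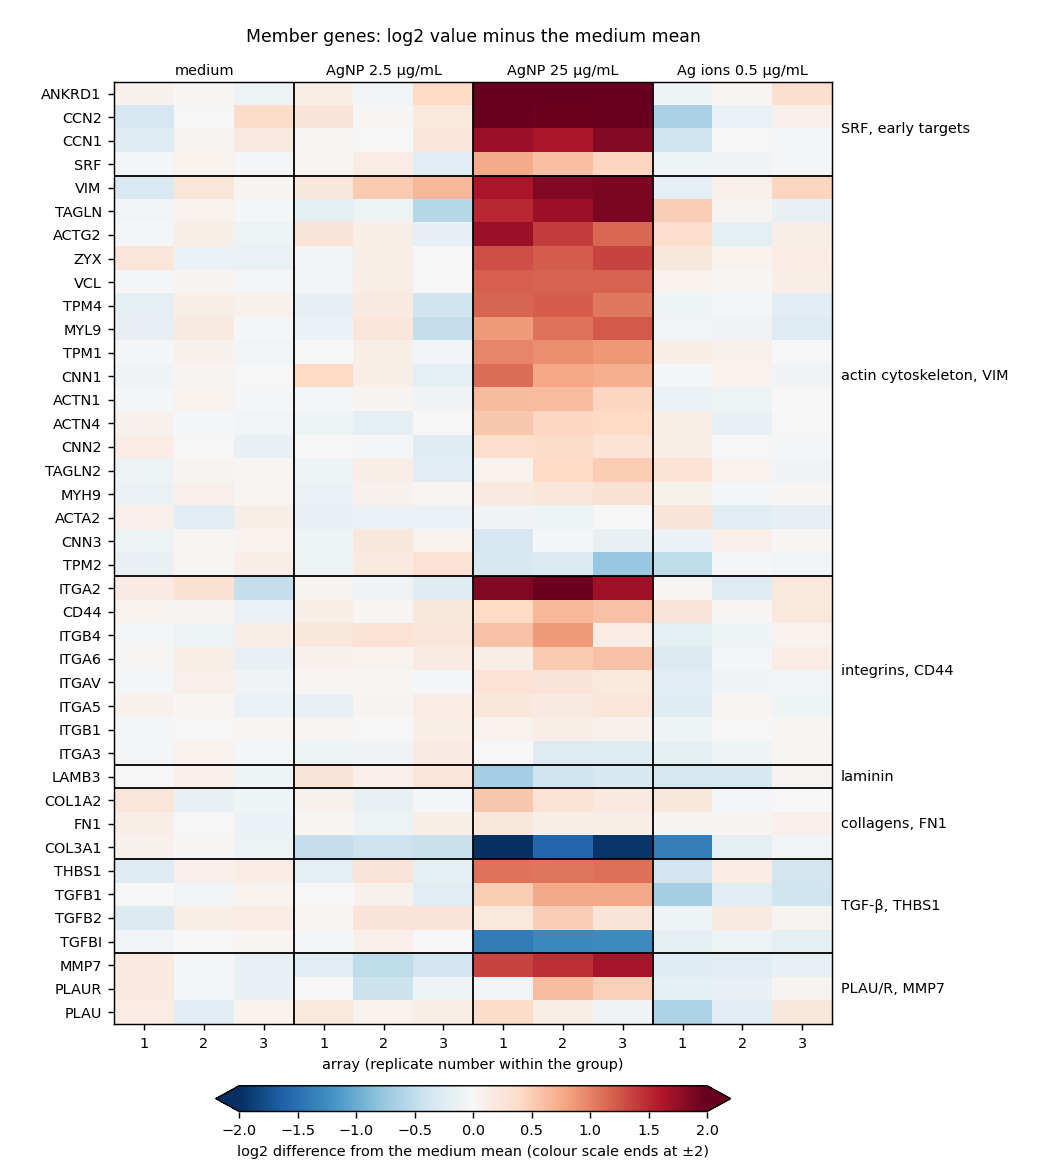
Log2 value of each of the 40 members (rows, grouped by role) on each of the 12 arrays (columns), minus the gene's mean on the 3 medium arrays; the colour scale ends at 2 in either direction. The 3 columns at 25 µg/mL hold nearly all strong colours, and the one dark cell outside them is COL3A1 on the first silver ion array.

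SRF and the 3 genes grouped with it all rose, with a median difference of 1.87. ANKRD1, which encodes a cardiac ankyrin repeat protein and is a target of YAP and TEAD, read 7.16, 7.09 and 6.96 in medium, 7.21, 7.02 and 7.47 with 2.5 µg/mL, 10.26, 10.27 and 10.19 with 25 µg/mL and 6.99, 7.12 and 7.40 with ions. The 25 µg/mL arrays lay far above all 9 others, which overlapped each other, and the rise of 3.17 ± 0.12 (SE, limma, n = 3 per group, adjusted p = 4.35e-10) was the largest among the members. Its promoter, printed above, holds 2 TEAD motifs.

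CCN2, a secreted matricellular protein also known as CTGF, read 6.40, 6.75 and 7.12 in medium, 7.01, 6.77 and 6.96 with 2.5 µg/mL, 8.81, 8.71 and 8.76 with 25 µg/mL and 6.10, 6.63 and 6.85 with ions. Only the 25 µg/mL arrays were set apart, and the medium arrays were themselves spread over 0.72; the difference was 2.01 ± 0.18 (adjusted p = 1.12e-06). Its relative CCN1, formerly CYR61, read 8.86, 9.18 and 9.33 in medium, 9.16, 9.14 and 9.37 with 2.5 µg/mL, 10.84, 10.75 and 10.97 with 25 µg/mL and 8.73, 9.12 and 9.08 with ions. Again the 3 lower groups overlapped, and CCN1 was higher by 1.73 ± 0.13 (adjusted p = 2.25e-07). SRF itself read 6.57, 6.69 and 6.59 in medium, 6.64, 6.77 and 6.39 with 2.5 µg/mL, 7.37, 7.22 and 7.05 with 25 µg/mL and 6.53, 6.55 and 6.60 with ions. All 3 arrays at 25 µg/mL were above the other 9 with a difference of 0.59 ± 0.11 (1.51-fold, adjusted p = 0.000472) that became -0.02 with poly-A scaling and 0.17 with hybridization scaling, neither called.

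Of the 17 genes of the actin cytoskeleton 13 rose, 1 fell and 3 were not called, with a median difference of 0.87. Vimentin (VIM), the intermediate filament protein of mesenchymal and migrating cells, read 5.40, 5.95 and 5.76 in medium, 5.92, 6.22 and 6.37 with 2.5 µg/mL, 7.34, 7.55 and 7.59 with 25 µg/mL and 5.52, 5.81 and 6.13 with ions. The groups other than 25 µg/mL overlapped, and the difference was 1.79 ± 0.17 (adjusted p = 1.58e-06). TAGLN encodes transgelin, an actin-bundling protein best known from smooth muscle, and read 9.30, 9.42 and 9.32 in medium, 9.16, 9.25 and 8.78 with 2.5 µg/mL, 10.86, 11.07 and 11.23 with 25 µg/mL and 9.83, 9.40 and 9.20 with ions. Its 25 µg/mL arrays were the highest and its 2.5 µg/mL arrays all lay below medium, a difference called only at 25 µg/mL (1.71 ± 0.15, adjusted p = 1.22e-06).

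Of the smooth muscle actins ACTG2 was called and ACTA2 was not. ACTG2 read 6.59, 6.74 and 6.51 in medium, 6.87, 6.74 and 6.46 with 2.5 µg/mL, 8.34, 8.02 and 7.75 with 25 µg/mL and 6.96, 6.43 and 6.75 with ions. All 25 µg/mL arrays exceeded all others, and ACTG2 rose by 1.43 ± 0.16 (2.69-fold, adjusted p = 8.07e-06). ACTA2, smooth muscle α-actin, read 4.88, 4.56 and 4.89 in medium, 4.63, 4.66 and 4.67 with 2.5 µg/mL, 4.71, 4.68 and 4.78 with 25 µg/mL and 5.03, 4.56 and 4.62 with ions. Every group overlapped medium and all values lay near the median of all probe sets, and the difference at 25 µg/mL was -0.06 (95% confidence interval -0.31 to 0.20, adjusted p = 0.777). Scaling on poly-A or hybridization controls gave ACTA2 -0.67 and -0.48, both called.

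The focal adhesion genes VCL and ZYX both rose. VCL, which encodes vinculin, read 10.42, 10.49 and 10.41 in medium, 10.38, 10.57 and 10.43 with 2.5 µg/mL, 11.63, 11.62 and 11.62 with 25 µg/mL and 10.52, 10.48 and 10.57 with ions. Its 3 arrays at 25 µg/mL agreed within 0.02 and lay over 1 unit above the rest (1.18 ± 0.08, adjusted p = 5.77e-08). Zyxin (ZYX), which marks mature adhesions under tension, read 6.85, 6.50 and 6.48 in medium, 6.56, 6.73 and 6.62 with 2.5 µg/mL, 7.89, 7.82 and 7.96 with 25 µg/mL and 6.85, 6.69 and 6.76 with ions. The difference was 1.28 ± 0.10 (adjusted p = 4.26e-07), again with the lower 3 groups overlapping. The α-actinins, which crosslink actin at adhesions and stress fibres, rose less: ACTN1 by 0.56 ± 0.08 and ACTN4 by 0.45 ± 0.09 (adjusted p = 0.000115 and 0.00131), and poly-A scaling turned both to -0.05 and -0.16.

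Tropomyosins, which coat actin filaments, did not move as one family. TPM4 read 7.87, 8.19 and 8.15 in medium, 7.90, 8.24 and 7.67 with 2.5 µg/mL, 9.23, 9.28 and 9.13 with 25 µg/mL and 7.98, 8.04 and 7.86 with ions. All arrays at 25 µg/mL were above all others, with a rise of 1.15 ± 0.13 (2.21-fold, adjusted p = 9.3e-06), and TPM1 rose by 0.92 ± 0.08 (adjusted p = 9.75e-07) with means of 10.13 in medium and 11.05 at 25 µg/mL. TPM2 was the opposite, with 5.85, 6.02 and 6.13 in medium and 5.68, 5.73 and 5.25 at 25 µg/mL, a fall of 0.45 on the log2 scale (adjusted p = 0.0364). Its other probe sets had the same sign, at -0.17, -0.12 and -0.24, and none was called (limma, adjusted p = 0.381, 0.552 and 0.179). The TPM2 call was lost without medium replicate 2 or 3 or without 25 µg/mL replicate 3, when the difference was -0.29 to -0.44 (adjusted p = 0.0846 to 0.18). Both control scalings lower every difference at 25 µg/mL, so they could not change the direction of TPM2. TPM4 kept its call under both, whereas TPM1 was 0.31 and not called with poly-A scaling (adjusted p = 0.211).

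Of the myosin and calponin genes, MYL9, the regulatory light chain of non-muscle and smooth muscle myosin, read 7.21, 7.54 and 7.35 in medium, 7.25, 7.61 and 6.89 with 2.5 µg/mL, 8.22, 8.46 and 8.60 with 25 µg/mL and 7.31, 7.31 and 7.12 with ions. The 25 µg/mL arrays were all above the rest and the difference was 1.06 ± 0.15 (2.08-fold, adjusted p = 8.98e-05). CNN1, a calponin that binds actin and myosin, rose by 0.87 ± 0.13 (adjusted p = 0.000118) from a dim 4.39 to 4.51 in medium to 5.19 to 5.57 at 25 µg/mL. With poly-A scaling neither was called, at 0.44 for MYL9 and 0.26 for CNN1 (adjusted p = 0.0746 and 0.297). CNN2 (0.33, adjusted p = 0.0156) and MYH9, the non-muscle myosin heavy chain (0.25, adjusted p = 0.0442), rose by under 1.5-fold. Under poly-A and hybridization scaling CNN2 turned to -0.28 and -0.10 and MYH9 to -0.36 and -0.18. The CNN2 call was also lost without medium replicate 3 or 25 µg/mL replicate 2 (0.26 and 0.31), and that of MYH9 without any one of 7 arrays (0.18 to 0.27).

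TAGLN2 and CNN3 completed the 17 and were not called. TAGLN2, a transgelin outside muscle, read 9.49, 9.66 and 9.64 in medium and 9.67, 10.00 and 10.11 at 25 µg/mL (0.33, adjusted p = 0.0628). The 25 µg/mL arrays were all above medium, the lowest by only 0.01, and the difference was called without 25 µg/mL replicate 1 (0.46) or ion replicate 1 (0.33). CNN3 read 10.64, 10.76 and 10.81 in medium, 10.65, 10.96 and 10.80 with 2.5 µg/mL, 10.40, 10.70 and 10.60 with 25 µg/mL and 10.62, 10.84 and 10.76 with ions, with overlap throughout and a difference of -0.17 (adjusted p = 0.245).

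**Figure D2:**
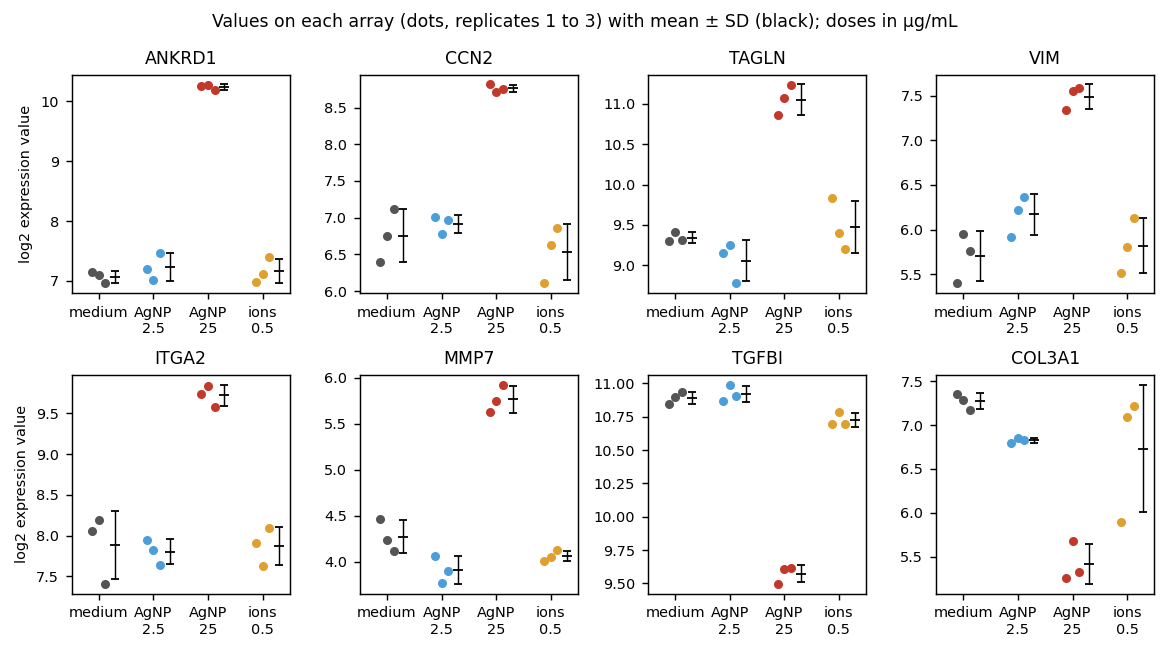
Log2 values on each array (dots) with mean ± SD of the 3 arrays of a group (black bars) for 8 members; each panel has its own vertical range. ANKRD1, CCN2, TAGLN, VIM, ITGA2 and MMP7 are highest on the 3 arrays at 25 µg/mL, and TGFBI and COL3A1 are lowest there.

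Among the 8 matrix receptors 5 rose, none fell and 3 were not called, with a median difference of 0.33, and ITGA2 led by a wide margin. ITGA2, the α2 subunit of the collagen and laminin receptor, read 8.05, 8.19 and 7.41 in medium, 7.94, 7.82 and 7.64 with 2.5 µg/mL, 9.74, 9.84 and 9.58 with 25 µg/mL and 7.91, 7.63 and 8.09 with ions. Its arrays at 25 µg/mL lay above all 9 others, although medium replicate 3 made it the member with the widest medium spread (SD 0.42), and the rise was 1.84 ± 0.17 (adjusted p = 1.78e-06). ITGB1, the β1 subunit that pairs with α2, read 12.55, 12.57 and 12.62 in medium and 12.65, 12.71 and 12.67 at 25 µg/mL. The ITGB1 arrays did not overlap, and its difference of 0.10 (95% confidence interval -0.07 to 0.26) was not called (adjusted p = 0.388); with poly-A or hybridization scaling it was -0.52 or -0.33, both called.

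CD44, the hyaluronan receptor, read 6.80 to 7.02 in medium and 7.33 to 7.60 at 25 µg/mL, without overlap (0.55 ± 0.10, adjusted p = 0.000636). ITGB4 and ITGA6 form the hemidesmosome receptor for laminin. ITGB4 read 6.40, 6.34 and 6.57 in medium and 7.02, 7.29 and 6.59 at 25 µg/mL (0.53, adjusted p = 0.00865), so that 25 µg/mL replicate 3 barely cleared the highest medium one. Its 4 other probe sets, all below the median of all values, gave differences of -0.26 to 0.06, and the mean of all 5 gave 0.05, not called (adjusted p = 0.76). ITGA6 read 7.65, 7.76 and 7.49 in medium and 7.75, 8.15 and 8.22 at 25 µg/mL, with 1 array inside the medium range (0.41, adjusted p = 0.0237). ITGAV, the αV subunit that binds fibronectin and latent TGF-β, rose by 0.25 (adjusted p = 0.0263) from 10.44 to 10.61 in medium to 10.72 to 10.80. Poly-A scaling turned CD44, ITGB4, ITGA6 and ITGAV to -0.06, -0.08, -0.20 and -0.36, and hybridization scaling the last pair to -0.02 and -0.18.

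The calls of ITGA6 and ITGAV depended on single arrays. The ITGA6 call was lost without medium replicate 1 or 3 or 25 µg/mL replicate 2 or 3 (0.32 to 0.42), and that of ITGAV without medium replicate 1 or 3 or 25 µg/mL replicate 1 or 2 (0.21 to 0.25). ITGA5, the fibronectin receptor subunit, read 5.97 to 6.18 in medium and 6.27 to 6.33 at 25 µg/mL, without overlap and without a call (0.22, adjusted p = 0.118). ITGA3, a laminin receptor subunit, read 5.19 to 5.29 and 4.97 to 5.23 (-0.17, adjusted p = 0.243), and both control scalings called it lower (-0.78 and -0.59). LAMB3, the β chain of laminin-332 to which the epithelial integrins bind, read 9.11, 9.23 and 9.03 in medium, 9.38, 9.23 and 9.36 with 2.5 µg/mL, 8.45, 8.72 and 8.80 with 25 µg/mL and 8.78, 8.81 and 9.19 with ions. The 25 µg/mL arrays were below medium but reached the lower ion arrays, and LAMB3 fell by 0.47 on the log2 scale (adjusted p = 0.00716).

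The TGF-β and thrombospondin genes split. THBS1, thrombospondin 1, a matricellular protein that can activate latent TGF-β, read 8.77, 9.12 and 9.17 in medium, 8.84, 9.28 and 8.82 with 2.5 µg/mL, 10.11, 10.09 and 10.12 with 25 µg/mL and 8.64, 9.17 and 8.65 with ions. Arrays at 25 µg/mL were tightly grouped above all others, and THBS1 rose by 1.08 ± 0.15 (2.12-fold, adjusted p = 7.36e-05; 0.47 and not called with poly-A scaling). TGFBI, a secreted protein induced by TGF-β that binds collagen and integrins, read 10.84, 10.89 and 10.94 in medium, 10.87, 10.99 and 10.91 with 2.5 µg/mL, 9.50, 9.61 and 9.62 with 25 µg/mL and 10.69, 10.78 and 10.69 with ions. It was lowest at 25 µg/mL on every array (-1.32 ± 0.08, adjusted p = 2.12e-08), and the ion arrays also lay just below medium.

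The ligand TGFB1 read 4.72, 4.67 and 4.80 in medium, 4.73, 4.82 and 4.51 with 2.5 µg/mL, 5.23, 5.49 and 5.48 with 25 µg/mL and 4.07, 4.50 and 4.34 with ions, values near the median of all probe sets. The 25 µg/mL arrays were above and the ion arrays below all medium arrays, and the former difference was called (0.67 ± 0.12, 1.59-fold, adjusted p = 0.000439), though not with poly-A or hybridization scaling (0.06 and 0.24). The second TGFB1 probe set, below the median of all values at 4.30 in medium, gave a difference of 0.03 (limma, adjusted p = 0.905). TGFB2 read 6.36, 6.77 and 6.79 in medium and 6.85, 7.13 and 6.89 at 25 µg/mL, without overlap and not called (0.32, adjusted p = 0.0618). Without medium replicate 3 TGFB2 was called, at 0.39.

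Of the 3 genes of matrix proteolysis only MMP7 was called. MMP7, matrilysin, an epithelial metalloprotease, read 4.47, 4.23 and 4.12 in medium, 4.06, 3.77 and 3.89 with 2.5 µg/mL, 5.62, 5.75 and 5.92 with 25 µg/mL and 4.01, 4.05 and 4.12 with ions. It was dim in the other groups, and all 3 arrays at 25 µg/mL lay above them, with a rise of 1.49 ± 0.11 (adjusted p = 1.95e-07). PLAU, urokinase, read 5.61, 5.24 and 5.52 in medium and 5.82, 5.58 and 5.39 at 25 µg/mL, overlapping (0.14, adjusted p = 0.598). Its receptor PLAUR read 6.77, 6.54 and 6.43 in medium and 6.53, 7.20 and 7.06 at 25 µg/mL (0.35, adjusted p = 0.119), and without 25 µg/mL replicate 1 it was called, at 0.55.

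The collagens and fibronectin went 3 ways. COL3A1, the chain of fibrillar collagen III, read 7.35, 7.29 and 7.17 in medium, 6.79, 6.85 and 6.83 with 2.5 µg/mL, 5.25, 5.68 and 5.33 with 25 µg/mL and 5.90, 7.09 and 7.21 with ions. Both particle doses lay below medium without overlap, the ion arrays were spread over 1.31, and the fall at 25 µg/mL was 1.85 ± 0.24 on the log2 scale (adjusted p = 3.74e-05). COL1A2, a chain of collagen I, read 4.36, 3.97 and 4.04 in medium and 4.67, 4.41 and 4.32 at 25 µg/mL, below the median of all values and overlapping (0.34, adjusted p = 0.0445). That call did not hold without medium replicate 2 or 3, 2.5 µg/mL replicate 3, 25 µg/mL replicate 1 or 2, or ion replicate 3 (0.24 to 0.37), and the difference was -0.27 or -0.09 with poly-A or hybridization scaling. FN1, fibronectin, read 13.89, 13.76 and 13.65 in medium, 13.79, 13.66 and 13.88 with 2.5 µg/mL, 13.99, 13.89 and 13.89 with 25 µg/mL and 13.82, 13.81 and 13.87 with ions. These values lie close to the top of the arrays' range, about 14.6, and the difference of 0.15 was not called (adjusted p = 0.21).

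**Figure D3:**
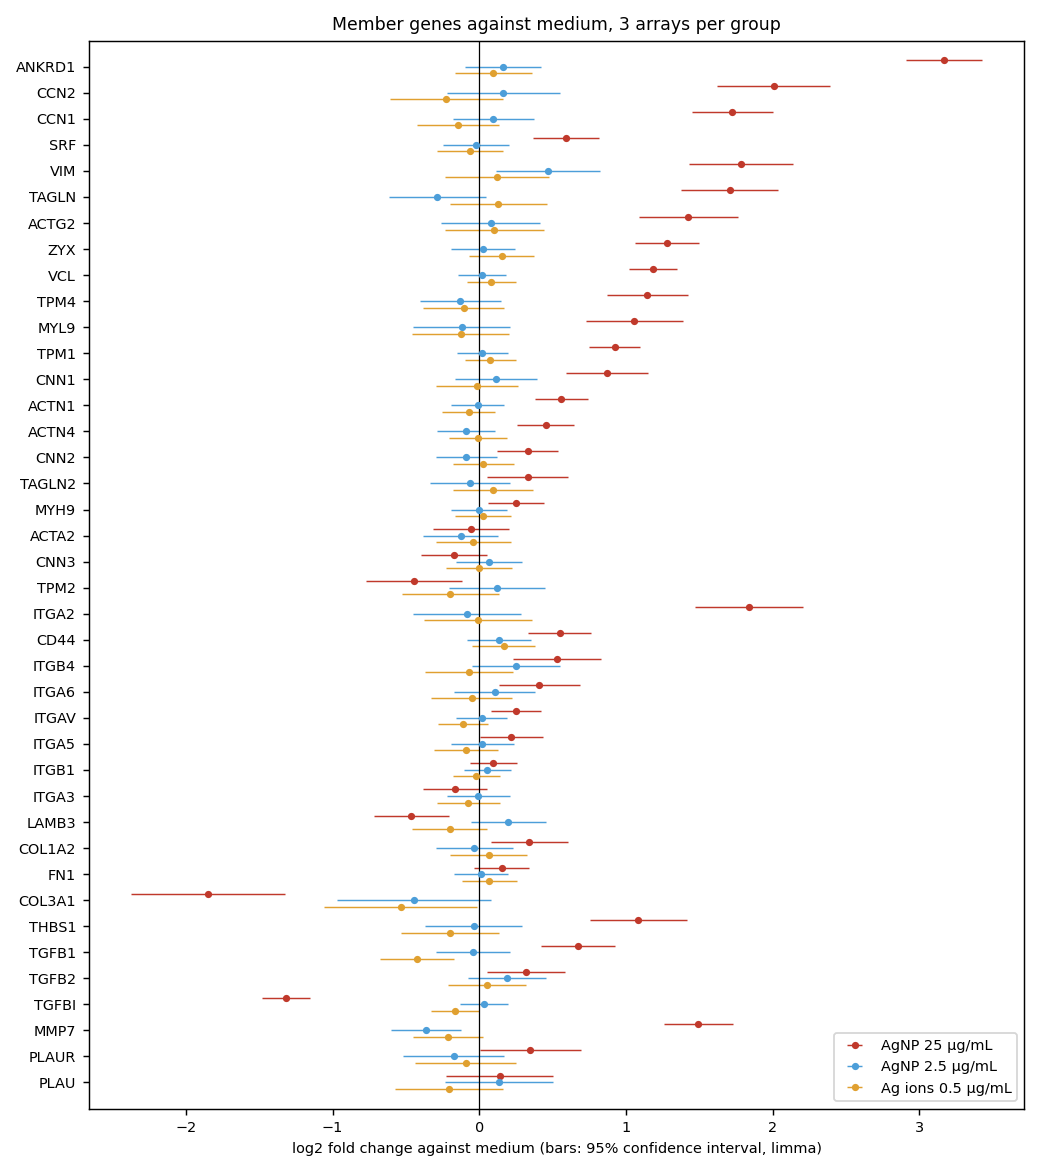
Log2 fold change against medium of each of the 40 members at 25 µg/mL (red), at 2.5 µg/mL (blue) and with silver ions at 0.5 µg/mL (orange), with 95% confidence intervals from limma, 3 arrays per group. At 25 µg/mL the points run from -1.85 (COL3A1) to 3.17 (ANKRD1), whereas the other treatments stay between -0.54 and 0.47.

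Several members were measured by more than 1 probe set, which bears on how firmly each value stands. Of 28 such members 15 had all probe sets on the same side of 0 at 25 µg/mL, and of the 17 with more than 1 probe set above the median of all values 15 did, the exceptions being CNN3 and FN1. No member had called probe sets of opposite sign when every probe set was tested. COL3A1 fell in 3 probe sets (-1.85, -1.56 and -1.30). THBS1 rose in 3, by 1.08, 0.77 and, in a dim one, 1.41, and read 0.00 in another above the median. PLAUR was called in both of its other probe sets (0.34 and 0.87), TGFB2 in a dim one (0.75) and FN1 in one (0.70). CNN3 read 0.24 in its other probe set, and the second VIM probe set was dim and near 0 (0.09). The probe sets used for ZYX, CNN2 and FN1 are of a kind that can share probes with other genes.

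**Figure D4:**
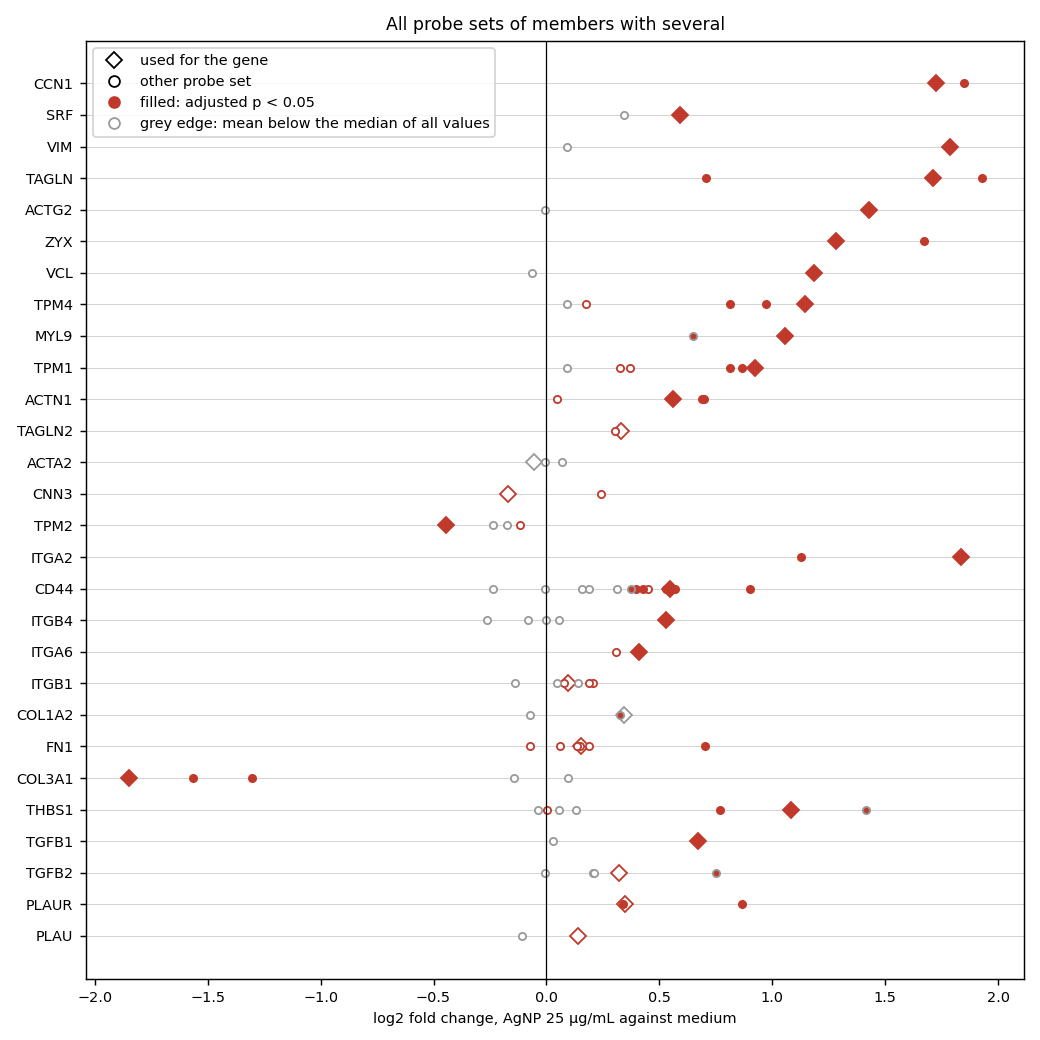
Log2 fold change at 25 µg/mL against medium for every probe set of the 28 members that have several; diamonds are the probe sets used for the gene, circles the others, filled symbols had an adjusted p under 0.05 when all probe sets were tested, and grey edges mark probe sets whose mean was below the median of all values. Filled symbols of a gene lie on the same side of 0 in every case.

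At 2.5 µg/mL no member was called, nor was any of the 19775 genes (0%). Without adjustment 2 members had limma p under 0.05 (5%, background 4.55%). VIM was higher by 0.47 ± 0.17 (adjusted p = 0.998), with its highest medium array inside the treated range, and MMP7 was lower by 0.36 on the log2 scale (adjusted p = 0.998), opposite to its change at 25 µg/mL. The arrays of 1 member, ITGB4, were all above medium and those of 3, TAGLN, MMP7 and COL3A1, all below (background 5.45% and 4.51%). The median difference of the members was 0.02. All 40 confidence intervals lay within a 2-fold change, the widest reaching -0.97 for COL3A1 and 0.82 for VIM; that of ANKRD1 ran from -0.10 to 0.42 and that of SRF from -0.25 to 0.20.

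Silver ions at 0.5 µg/mL likewise gave no call among the members or all genes (0%). Here 3 members had an unadjusted limma p under 0.05 (7.5%, background 6.24%), all of them lower: TGFB1 by 0.43 (adjusted p = 0.713), TGFBI by 0.17 (adjusted p = 0.791) and COL3A1 by 0.54 on the log2 scale (adjusted p = 0.79). TGFB1 and TGFBI had all 3 ion arrays below medium (background 5.13%), and no member had all 3 above (background 5.32%). The COL3A1 difference rested on ion replicate 1, at 5.90, and was -0.12 without it. The median over members was -0.05. The confidence intervals of 39 members lay within a 2-fold change, and that of COL3A1 reached -1.06.

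Set against the lower particle dose rather than medium, 25 µg/mL gave 26 members higher and 4 lower (TPM2, LAMB3, TGFBI and COL3A1), 75% against 34% of all genes, with a background of 13.7% higher and 20.3% lower. ANKRD1 was higher by 3.01 ± 0.12, TAGLN by 2.00 ± 0.15, ITGA2 by 1.92 ± 0.17 and MMP7 by 1.86 ± 0.11. COL3A1 and TGFBI were lower by 1.41 ± 0.24 and 1.35 ± 0.08 on the log2 scale. TAGLN2 and PLAUR, not called against medium, were higher here by 0.39 and 0.52 (adjusted p = 0.0279 and 0.0203), whereas ITGB4 and ITGA6 were not called (0.28 and 0.30). With poly-A scaling the counts were 10 higher and 14 lower, where 0.678% of all genes were called higher and 85.3% lower. With hybridization scaling they were 16 and 6, where all genes gave 2.88% and 45.9%. This comparison shares the 25 µg/mL arrays with the one against medium.

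Particles at 25 µg/mL and ions at 0.5 µg/mL differ in dose as well as in form, and this contrast does not separate dose from form. Against the ion arrays 26 members were higher and 2 lower (TGFBI and COL3A1), with 32.3% of all genes called, 13.7% higher and 18.6% lower. ANKRD1 was higher by 3.07 ± 0.12, CCN2 by 2.23 ± 0.18 and TGFB1 by 1.10 ± 0.12, the last from an ion mean of 4.30. TGFBI and COL3A1 were lower by 1.15 ± 0.08 and 1.31 ± 0.24 on the log2 scale. With poly-A scaling the counts were 9 higher and 15 lower, beside 0.713% and 87.8% of all genes. With hybridization scaling they were 16 and 8, beside 2.52% and 69.9%. Between particles at 2.5 µg/mL and ions no member and no gene was called (0%), and 6 members had unadjusted p under 0.05 (15%, background 8.77%): CCN2, ITGB4, LAMB3, TGFB1 and TGFBI were higher with particles by 0.20 to 0.40, and TAGLN was lower by 0.42 on the log2 scale.

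Genes of 4 neighbouring lists are given by their counts at 25 µg/mL, beside the 14.1% of all genes called higher and 19.3% called lower. Their counts under control scaling stand beside 0.905% of all genes higher and 71.2% lower with poly-A scaling, and 2.57% and 64.9% with hybridization scaling. Regulators of the MRTF, YAP and TEAD branch (20 measured) numbered 7 higher and 4 lower at 25 µg/mL, with a median of 0.11. AJUBA, a LIM protein that restrains the Hippo kinases, rose by 0.87, STK4, one of those kinases, by 0.71 and TEAD1 by 0.52. The cofactor VGLL3 fell by 0.68, WWTR1, which encodes TAZ, by 0.57 and AMOT by 0.55 on the log2 scale. With poly-A scaling 0 were higher and 10 lower, and with hybridization scaling 1 and 10.

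Other integrins and focal adhesion genes (28 of 29 measured) numbered 8 higher and 8 lower, with a median of -0.02. TES, an adhesion protein that binds zyxin, rose by 0.89, PARVA by 0.54 and BCAR1 by 0.52, while TNS1, which encodes tensin 1, fell by 0.86, ITGA9 by 0.76 and ITGA7 by 0.73 on the log2 scale. Basement membrane and other matrix genes (27 of 29 measured) numbered 4 higher and 8 lower, with a median of 0.01. SERPINH1, the collagen chaperone, rose by 0.62, TNC by 0.58 from a dim 3.93, and COL4A2 by 0.46, with overlapping arrays. COL4A1 fell by 0.88, LAMB2 by 0.88 and SPARC by 0.85 on the log2 scale, so the paired collagen IV chains differed in sign, though not with poly-A scaling. Control scaling left 0 or 1 of the former list higher (19 or 18 lower, poly-A or hybridization) and 0 of the latter (17 or 16 lower).

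TGF-β receptors, SMADs and proteases (32 of 33 measured) numbered 8 higher and 9 lower, with a median of -0.01, and held the 3 steepest rises of the 4 lists. MMP1, interstitial collagenase, rose by 2.92 ± 0.25 and MMP10, stromelysin 2, by 2.42 ± 0.15 from a dim 3.87. SERPINE2, an inhibitor of thrombin and urokinase, rose by 2.18 ± 0.15. The decoy receptor BAMBI fell by 0.80, SMAD4 by 0.71 and SMAD6 by 0.55 on the log2 scale. With poly-A scaling 3 were higher and 21 lower, and with hybridization scaling 5 and 20. In all 4 lists, rises below 0.61 turn negative with poly-A scaling, which among those named takes in TEAD1, PARVA, BCAR1, TNC and COL4A2. None of the 4 lists had a called gene at 2.5 µg/mL or with ions.

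Motif content can be read against these changes as a description. All 5 members with a CArG box in the window rose at 25 µg/mL, with a median of 0.59, though 3 of them (SRF, ACTN1 and CNN2) turned negative with poly-A scaling and CNN2 also with hybridization scaling. Of the 11 with a TEAD motif 6 rose (CCN2, ANKRD1, ACTN1, MYH9, VCL and THBS1) and 5 were not called (ACTA2, CNN3, ITGA5, ITGB1 and TGFB2), with a median of 0.32. Of the 5 with an AP-1 motif MMP7 rose, LAMB3 fell and TAGLN2, ITGA5 and PLAUR were not called. For comparison, 65% of the 40 members were called higher, with a median of 0.49, and 14.1% of all genes were. Whether motif and rise are linked was not tested. In SRF the first bases of the CArG boxes lie 30 and 10 bases before the start, in ACTG2 110 and 73, and in TPM4 173. In MMP7 the AP-1 motif begins 67 bases before the start.

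Scaling on controls lowers every difference between 25 µg/mL and medium. It changed the sign of small rises, kept that of large rises and could not change that of falls. Of the 30 called members 13 kept their call and direction under all of the 25 alternatives in which they had a value: CCN1, CCN2, ANKRD1, ACTG2, TAGLN, TPM4, VCL, ZYX, VIM, ITGA2, MMP7, TGFBI and COL3A1. Apart from scaling on controls 19 did, with SRF, TPM1, MYL9, CNN1, THBS1 and TGFB1 added. The filter on dim genes removed MMP7 and CNN1, which therefore were not tested under it. Among the 11 called members that changed by under 1.5-fold, 9 rose, and all 9 turned negative with poly-A scaling.

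**Figure D5:**
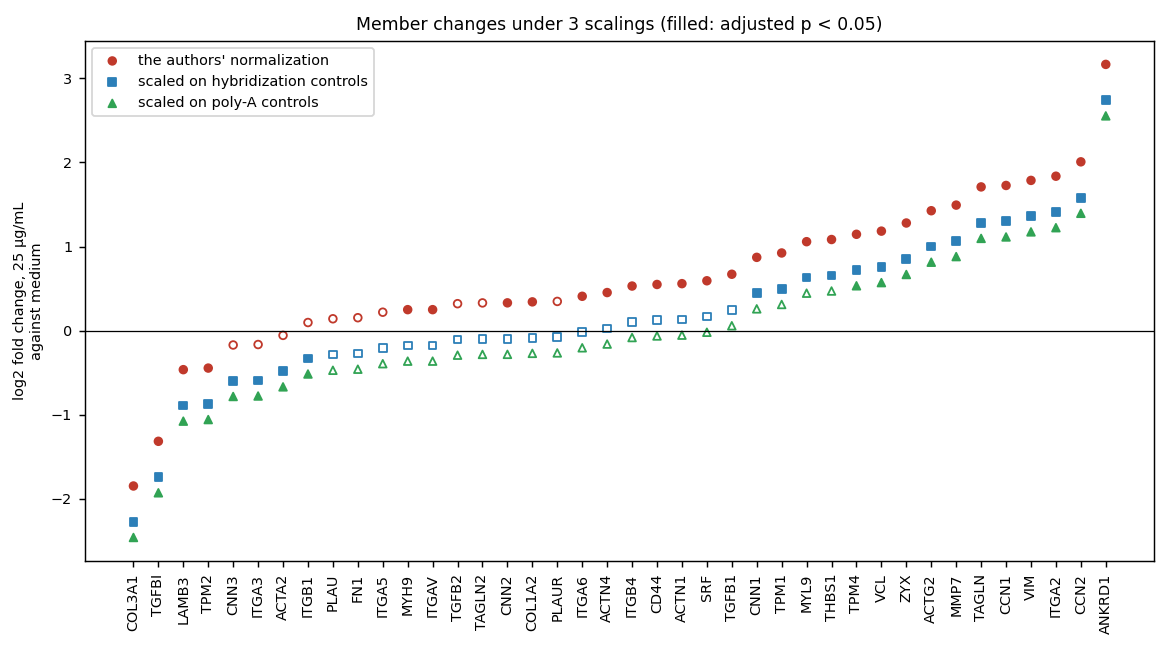
Log2 fold change of each member at 25 µg/mL against medium with the authors' normalization (red circles), with arrays scaled on the hybridization controls (blue squares) and on the poly-A controls (green triangles); filled symbols had an adjusted p under 0.05. The members are ordered by change, and the whole series shifts down by 0.43 or 0.61, so that differences near 0 change sign while ANKRD1 stays above 2.5 and COL3A1 below -1.8.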

How the data were processed

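For each probe set and each of 12 arrays the authors deposited a log2 value. The tools, per the submitters' processing notes, were Partek and RMA; neither version nor setting is given in the sources used here. RMA makes the arrays' distributions alike, so a change in total RNA per cell would not show. Of 54675 probe sets, 62 were controls, 41091 had 1 gene symbol in the platform annotation used (41037 updated through the gene ID, 54 kept as given), 1801 had several and 11721 none. For each of 19775 genes the 1-symbol probe set of highest mean over the arrays was taken. All 4 groups entered 1 model in limma 3.58.1 (R 4.3.3; 8 residual and 6.25 prior degrees of freedom), tested on simulated data, with 2-sided contrasts and Benjamini-Hochberg adjustment over all genes. Errors are standard errors from limma. The precision is limited by 3 arrays per group, and no detection calls or depths were used. Alternatives were quantile normalization, median centring, scaling on controls, a filter on dim genes, other rules for probe sets, an intensity trend, array weights, stricter thresholds, fits of 1 comparison's groups alone, and the omission of each array in turn.

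Members and lists were chosen with earlier results of these data known, so that no list is independent support. One of the neighbouring gene lists is not reported here. Every measured member is named. All arrays are given for members called at 2-fold or more and for those a result turns on, and up to 3 called genes in each direction for the other lists. Figures were drawn with matplotlib 3.10.9.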

Additional observations from a re-analysis of the deposited data

Results flagged for a closer look

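The control probe sets, which no comparison of genes uses, carried a signal above that of the medium arrays at 25 µg/mL. The poly-A spike probe sets differed by 0.61 on the log2 scale (means of 5.41 and 6.02; the lowest array at 25 µg/mL, 5.56, lay just above the highest medium array, 5.54). The hybridization probe sets differed by 0.43 (means of 10.55 and 10.98; lowest array at 25 µg/mL 10.89, highest medium array 10.66). The part of this shift in the members' changes was not tested beyond the scaled values given.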

How the results depend on the processing

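In all 25 alternatives the comparisons of 2.5 µg/mL or ions with medium, and with each other, gave 0 called members. Leaving out 1 array at a time, members higher at 25 µg/mL against medium numbered 21 to 27 and members lower 3 to 4. Over the same omissions all genes numbered 2279 to 2957 higher and 3188 to 3999 lower. The members' median difference was 0.42 to 0.52. With poly-A scaling, members higher and lower against medium numbered 11 and 8, against 2.5 µg/mL 10 and 14 and against ions 9 and 15. All genes then numbered 179 higher and 14081 lower, 134 and 16869, and 141 and 17368. The members' median differences were -0.12 at 25 µg/mL, 0.15 at 2.5 µg/mL and 0.13 with ions. With hybridization scaling the corresponding counts were 15 and 8, 16 and 6, and 16 and 8 for members, and 508 and 12835, 569 and 9067, and 498 and 13817 for all genes. The members' medians were 0.064 at 25 µg/mL and -0.065 at 2.5 µg/mL. Poly-A scaling reversed SRF (-0.020), ACTN1 (-0.055), ACTN4 (-0.16), MYH9 (-0.36), CNN2 (-0.28), ITGA6 (-0.20), ITGAV (-0.36), ITGB1 (-0.52), ITGB4 (-0.083), CD44 (-0.064) and COL1A2 (-0.27). Hybridization scaling reversed MYH9 (-0.18), CNN2 (-0.10), ITGA6 (-0.019), ITGAV (-0.18), ITGB1 (-0.33) and COL1A2 (-0.085). TAGLN2, ITGA5, TGFB2, PLAU, PLAUR and FN1, called neither before nor after, also changed sign under both, which makes 17 and 12 members in all. The sign changes follow from the uniform shift that the scaling makes. Requiring 1.5-fold at 25 µg/mL left 17 members higher against 2.5 µg/mL, a count for which no all-gene count at this threshold is given. Against medium it left 17 members higher and 2 lower, where all genes numbered 909 higher and 1614 lower. Beside these all-gene counts, the same threshold left 3 calls among MRTF, YAP and TEAD regulators and 6 in other integrins. It left 4 in basement membrane and 8 in the TGF-β list. Averaging a gene's probe sets gave a median of 0.36 at 25 µg/mL, and the cause was not tested. Taking the probe set of largest variance gave 0.68. That variance is over all arrays, those at 25 µg/mL included, so the rule itself can favour probe sets that change there. No paired analysis was possible because the labels carry no replicate numbers.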
